A study of Mus musculus with 14 samples.

Results

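The 45 genes described here carry out DNA replication and cell division, and were taken from liver RNA profiled on a 1-colour Affymetrix mouse expression array. They were chosen by name, with earlier results of these data known. Of the 45, 44 were found among the 12393 genes that the platform annotation gives as the only symbol of a probe set. In the platform annotation used here Ccnb1 is not the only symbol of any probe set, so cyclin B1 was not analysed. The 44 genes had 86 probe sets, 25 genes had more than 1, and each gene is represented by the probe set with the highest mean across the 14 arrays, with no filter on intensity. Levels are linear intensities after quantile normalization, and each fold change is the difference between 2 group means on the log2 scale, with its standard error (SE).

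All 14 arrays held liver RNA of C57BL/6J mice with diet-induced obesity (DIO in the labels). Jnk1 shRNA livers (5 arrays) had received an adenovirus (Adv-shRNA in the labels) carrying a short hairpin RNA against Jnk1, the kinase encoded by Mapk8. GFP shRNA livers (4 arrays, numbered 1, 2, 3 and 5) had received an adenovirus with a hairpin against green fluorescent protein, which mice lack, so that both groups carried a virus and a hairpin. Vehicle livers (5 arrays) had received neither. The sources used here do not give sex, age, virus dose or time after treatment. The labels do not say whether each array came from a separate mouse, so p-values measure the spread between these arrays, which may be technical.

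A dividing cell passes through an ordered programme. D-type cyclins with Cdk4 and E-type cyclins with Cdk2 release E2F transcription factors in G1, the Mcm2 to Mcm7 helicase is loaded on replication origins and fired, forks copy the DNA from a supply of deoxynucleotides, and cyclin A and B with Cdk1 then drive mitosis, which the spindle checkpoint holds until chromosomes are attached. Adult hepatocytes are mostly quiescent and can re-enter the cycle after injury or loss of tissue. E2F motifs mark many replication genes, and the cell cycle homology region (CHR) and CCAAT boxes mark many genes of G2 and mitosis.

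Promoters are shown for 5 members whose levels differed most between the groups or that carry the motif of their phase. The sequences are the 250 bases before the transcription start in RefSeq (GRCm38.p6), written 5′ to 3′ on the gene's strand, and capitals mark matches, on either strand, to an E2F motif (TTTCGCGC or TTTGGCGC), a CHR (TTTGAA) or a CCAAT box (CCAAT). Mcm6, a subunit of the replicative helicase, lies on the minus strand and its window is chr1:128359706-128359955. Mcm5, its partner subunit, lies on the plus strand at chr8:75109259-75109508. Cdk1, the mitotic kinase, lies on the minus strand at chr10:69352913-69353162, Mki67, which coats mitotic chromosomes, on the minus strand at chr7:135716380-135716629, and Birc5 (survivin) on the plus strand at chr11:117848987-117849236.
Mcm6: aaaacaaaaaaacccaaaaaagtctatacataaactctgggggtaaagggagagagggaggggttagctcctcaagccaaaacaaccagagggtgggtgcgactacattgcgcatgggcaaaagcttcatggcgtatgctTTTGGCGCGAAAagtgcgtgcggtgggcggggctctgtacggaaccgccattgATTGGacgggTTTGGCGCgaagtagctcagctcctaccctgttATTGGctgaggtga
Mcm5: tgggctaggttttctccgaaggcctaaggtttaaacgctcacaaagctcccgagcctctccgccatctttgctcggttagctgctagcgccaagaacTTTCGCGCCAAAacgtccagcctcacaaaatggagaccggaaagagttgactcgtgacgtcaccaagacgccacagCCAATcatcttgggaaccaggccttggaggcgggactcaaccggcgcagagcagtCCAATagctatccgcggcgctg
Cdk1: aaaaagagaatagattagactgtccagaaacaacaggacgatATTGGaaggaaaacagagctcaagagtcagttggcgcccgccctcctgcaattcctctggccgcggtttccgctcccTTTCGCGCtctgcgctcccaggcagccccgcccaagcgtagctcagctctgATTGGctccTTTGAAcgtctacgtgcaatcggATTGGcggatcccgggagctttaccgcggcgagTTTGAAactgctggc
Mki67: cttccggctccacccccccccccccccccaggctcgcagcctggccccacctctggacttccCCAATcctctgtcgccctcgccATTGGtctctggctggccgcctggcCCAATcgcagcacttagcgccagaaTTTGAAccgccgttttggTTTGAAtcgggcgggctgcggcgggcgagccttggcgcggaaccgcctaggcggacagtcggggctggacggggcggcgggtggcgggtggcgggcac
Birc5: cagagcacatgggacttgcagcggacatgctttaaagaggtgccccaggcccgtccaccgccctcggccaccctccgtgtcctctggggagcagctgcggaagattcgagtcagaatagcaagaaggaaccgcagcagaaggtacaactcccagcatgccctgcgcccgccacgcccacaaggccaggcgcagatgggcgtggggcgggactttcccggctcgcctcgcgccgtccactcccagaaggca

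Mcm6 held 3 E2F matches, of which the first 2 overlap on opposite strands, and 2 CCAAT boxes. Mcm5 held 2 overlapping E2F matches and 2 CCAAT boxes, Cdk1 held 1 E2F match, 2 CHR matches and 3 CCAAT boxes, and Mki67 held 2 CHR matches and 3 CCAAT boxes. Birc5 held no match in these 250 bases. Promoters were found for 34 of the 45 genes, Ccnb1 among them. Within the 250 bases an E2F match stood in 5 of the 34 genes (14.7%), against 0.654% of 32851 mouse promoters. CCAAT boxes stood in 24 of 34 genes (70.6%), against 33.8% of all promoters, and CHR matches in 8 of 34 (23.5%), against 16% of all promoters. A match of letters is a description and not a binding site.

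The array medians as deposited lay between 41.8 and 58.3, with GFP shRNA array 2 the highest, and quantile normalization made the distributions equal. Mapk8 measured 65.5, 58.8, 82.2, 68.2 and 63.2 in the Jnk1 shRNA arrays, 162, 166, 182 and 159 in the GFP shRNA arrays, and 186, 184, 149, 185 and 185 in the vehicle arrays. The Jnk1 shRNA arrays lay below all others, and Mapk8 was lower than in GFP shRNA livers by a log2 change of -1.31 ± 0.10, adjusted p = 1.07e-06. The hybridization spike-in controls, which are not liver RNA, averaged a log2 intensity of 8.36 ± 0.32 in the Jnk1 shRNA arrays and 8.91 ± 0.08 in the GFP shRNA arrays (SD, n = 5 and 4, exact two-sided permutation p = 0.0159), and 8.91 ± 0.10 in the vehicle arrays (n = 5, exact permutation p = 0.00794 against Jnk1 shRNA, the smallest this design allows). The spike-in level moved with the Jnk1 shRNA group. Fits that adjust for it are given below, but they cannot fully separate its part from that of the group. Its part in the results below was therefore not tested. The files hold no detection calls, so a gene is said to lie near background in a group where its mean was under an intensity of 28.4, the 40th percentile of all probe set means. By this measure 10 members lay near background in Jnk1 shRNA, 12 in GFP shRNA and 24 in vehicle livers. For 12 members this held in vehicle livers alone, and 9 lay near background in all 3 groups. A fold against such a group is uncertain in size. Values of 2.01 are at the floor, the 5th percentile of all values.

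Against vehicle livers, 22 members rose with Jnk1 shRNA and 10 with GFP shRNA, a contrast between counts that was not itself tested. At an unadjusted p under 0.05 the counts higher were 28 and 25, and the adjustment runs over many more small p-values with Jnk1 shRNA, where 5100 probe sets were called, than with GFP shRNA, where 277 were. In Jnk1 shRNA livers 22 of 44 members rose and 0 fell (limma, adjusted p under 0.05, with 1 lower at an unadjusted p under 0.05), where 11.9% of all probe sets were called higher and 10.7% lower. The median log2 fold change of the members was 0.75, against -0.03 over all probe sets tested. It was 0.44 when 16 was added to each intensity and no floor was set, and 1.13 when the 25 genes with more than 1 probe set were read by their next one. In a fit that adjusts for the spike-in controls 12 members rose, and the calls of Mcm3, Mcm5, Mcm7, Dut, Ccnb2, Aurka, Cdc20, Bub1b, Mad2l1 and Kif20a were lost. The median of the members in that fit was 0.77, against 0.75 without the adjustment. As the spike-in level moved with the Jnk1 shRNA group, that fit cannot fully separate the level from the group. In GFP shRNA livers 10 of 44 members rose and 0 fell against vehicle (0 lower at an unadjusted p under 0.05 too), where 1.01% of all probe sets were called higher and 0.217% lower. Their median was 0.54, against -0.01 over all probe sets. The count of 10 was 6, 4 or 5 without GFP shRNA array 1, 3 or 5, and 6 without vehicle array 5. With only the GFP shRNA and vehicle arrays in the fit it was 1, Birc5. Both comparisons use the same vehicle arrays. The members were chosen with earlier results of these data known, so these shares are a description and not a test.

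Between the viruses few members differed. Rrm1, Mcm4 and Hmgb2 were higher in Jnk1 shRNA than in GFP shRNA livers, and Ccnd1, Pcna and Cdk2 were lower. That is 3 of 44 in each direction, below the 9.98% of all probe sets called higher and the 8.67% called lower. Without Jnk1 shRNA array 2 the count higher was 1, and in a fit that adjusts for the spike-in controls it was 1 in each direction, Rrm1 and Ccnd1. The count higher was 6 with arrays scaled to the same median, when 16 was added to each intensity, or with array weights. Of all calls between the viruses 53.5% were higher, against 72.9% when arrays were brought to 1 common median. The median log2 fold change of the members was 0.16 with 29 of 44 above 0, against -0.02 over all probe sets, and it turned to -0.05 with 20 of 44 above 0 on the intensities as deposited, where the median of all probe sets was itself -0.16. Groups did not overlap for 8 of 44 members between the viruses, near the 18.8% of all probe sets. Against vehicle they did not overlap for 19 members in Jnk1 shRNA (18.5% of all probe sets) and for 16 in GFP shRNA livers (4.49%). These are bulk livers, in which more cells in cycle and more of an RNA per cell cannot be told apart.

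**Figure D1:**
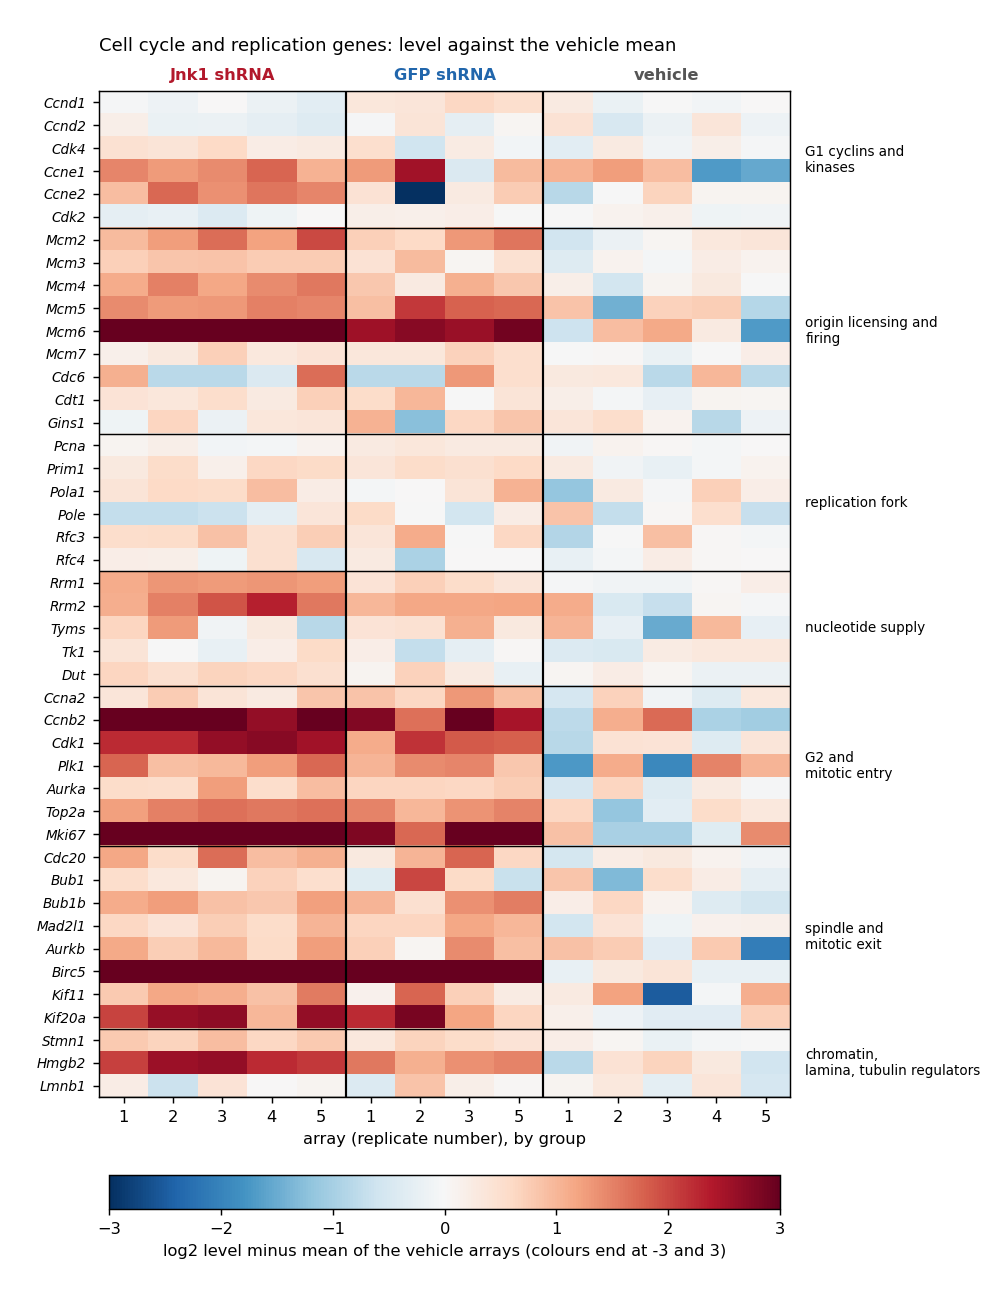
Level of each of the 44 members (rows, in order of role) on each of the 14 arrays (columns, in group order), as log2 intensity minus the mean of the vehicle arrays. Red is higher and blue lower than the vehicle mean. Colours end at -3 and 3. Birc5 was at the red end on all 9 virus arrays and Mcm6 on all 5 Jnk1 shRNA arrays, and Ccnd1 was redder in the 4 GFP shRNA arrays than in any other group.

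Among the 6 G1 cyclins and kinases, cyclin D1 and Cdk2 fell in Jnk1 shRNA against GFP shRNA livers and 0 genes rose (limma, with 1, Ccne2, higher at an unadjusted p under 0.05). Against vehicle, 0 of 6 were called in Jnk1 shRNA livers (limma, with 2 higher and 1 lower at an unadjusted p under 0.05), and Ccnd1 rose in GFP shRNA livers. Counts by role, here and below, are to be read against the shares of all probe sets. These were 11.9% higher and 10.7% lower in Jnk1 shRNA against vehicle, and 1.01% and 0.217% in GFP shRNA against vehicle. Between the viruses they were 9.98% higher and 8.67% lower. Ccnd1, cyclin D1, which starts the passage through G1, measured 129, 119, 132, 117 and 105 in the Jnk1 shRNA arrays, 167, 169, 201 and 187 in the GFP shRNA arrays, and 158, 115, 132, 125 and 133 in the vehicle arrays. The GFP shRNA arrays lay above every array of the other groups, and the Jnk1 shRNA and vehicle arrays overlapped. Ccnd1 was 1.5-fold lower in Jnk1 shRNA than in GFP shRNA livers (-0.59 ± 0.10, adjusted p = 0.000782), a call kept in each of 27 alternative settings (other scalings, filters, models and probe sets, and each array left out in turn). Its second probe set fell as well (-0.60 ± 0.15, adjusted p = 0.0127), and the last of its 3 probe sets did not pass (-0.19 ± 0.24, adjusted p = 0.661). The rise of Ccnd1 in GFP shRNA against vehicle livers (0.46 ± 0.10, adjusted p = 0.0424) was lost in 21 of 27 alternatives, with adjusted p between 0.0137 and 0.135 when single arrays were left out. These losses came without Jnk1 shRNA array 1, 2, 3 or 4, without any one of the 4 GFP shRNA arrays, and without vehicle array 2, 3, 4 or 5. Neither of its other probe sets passed in that comparison (0.61 ± 0.15, adjusted p = 0.0792 for the second and 0.46 ± 0.24, adjusted p = 0.471 for the last).

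Cdk2, the kinase partner of cyclins E and A, measured 95.1, 98.2, 87.1, 106 and 117 in the Jnk1 shRNA arrays, 129.5, 128, 133 and 114 in the GFP shRNA arrays, and 114, 124, 129, 105 and 107 in the vehicle arrays. All but 1 of the Jnk1 shRNA arrays lay below the lowest GFP shRNA array, and the Jnk1 shRNA values overlapped the vehicle values. The decrease against GFP shRNA livers was 1.26-fold (-0.33 ± 0.10, adjusted p = 0.0297). It was lost without Jnk1 shRNA array 1, 2 or 3 or without GFP shRNA array 1, 2 or 3, with adjusted p between 0.0147 and 0.0783 over the single arrays left out. Ccne2, cyclin E2, measured 30.99, 54.3, 42.6, 49.8 and 45.1 in the Jnk1 shRNA arrays, 22.1, 2.01, 19.9 and 28.02 in the GFP shRNA arrays, and 9.20, 16.4, 25.9, 17.5 and 17.4 in the vehicle arrays. Every Jnk1 shRNA array lay above every GFP shRNA and vehicle array, GFP shRNA array 2 was at the floor, and both other groups lay near background on average. The differences did not pass, at 1.80 ± 0.61, adjusted p = 0.0550 against GFP shRNA and 1.42 ± 0.58, adjusted p = 0.1002 against vehicle. Without GFP shRNA array 2 the difference between the viruses was 0.94, and it passed without GFP shRNA array 1 or 5 (adjusted p down to 0.0329). The difference from vehicle passed without GFP shRNA array 2 (adjusted p = 0.00137), since all 3 groups share 1 estimate of the spread.

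Cyclin E1, cyclin D2 and Cdk4 were not called in any comparison by their probe set of highest mean. Ccne1 ranged from 34.9 to 56.7 in Jnk1 shRNA, 12.6 to 96.4 in GFP shRNA and 5.23 to 40.6 in vehicle arrays, so that 2 vehicle arrays and 1 GFP shRNA array lay far below the others. Ccnd2 had fold changes of -0.21 ± 0.19, adjusted p = 0.510 between the viruses and -0.18 ± 0.18, adjusted p = 0.566 for Jnk1 shRNA against vehicle, and none of its 7 probe sets was called. Cdk4, the partner of D cyclins, had a log2 fold change of 0.39 ± 0.18, adjusted p = 0.158 in Jnk1 shRNA against vehicle livers, and its second probe set passed (0.55 ± 0.14, adjusted p = 0.00806).

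Of the origin licensing and firing genes, all 6 helicase subunits rose in Jnk1 shRNA against vehicle livers and the 3 genes that load or start the helicase did not pass. In Jnk1 shRNA livers 6 of 9 thus rose, namely Mcm2, Mcm3, Mcm4, Mcm5, Mcm6 and Mcm7, and the list's median was 0.79. In GFP shRNA livers 1 of 9, Mcm6, rose, with a median of 0.48 and 7 of 9 higher at an unadjusted p under 0.05. Between the viruses 1 of 9, Mcm4, rose and the median was 0.09. Mcm6 measured 191, 200.03, 218, 227 and 244 in the Jnk1 shRNA arrays, 82.5, 93.6, 84.8 and 105 in the GFP shRNA arrays, and 9.13, 27.1, 31.2, 16.9 and 4.33 in the vehicle arrays. The groups did not overlap in any pairing, and the vehicle arrays averaged near background. Against vehicle Mcm6 was 15.2-fold higher in Jnk1 shRNA livers (3.93 ± 0.41, adjusted p = 6.93e-06) and 6.45-fold higher in GFP shRNA livers (2.69 ± 0.43, adjusted p = 0.00611). The 2 probe sets of Mcm6 differed in call between the viruses. By the first the difference was 1.24 ± 0.43, adjusted p = 0.0628, although the 5 Jnk1 shRNA arrays lay above the 4 GFP shRNA arrays, and it passed without vehicle array 2, 3 or 5 (adjusted p down to 0.00683). By the second it was called (1.52 ± 0.16, adjusted p = 1.14e-05).

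That second probe set of Mcm6 measured 129.7, 207, 147, 208 and 198 in the Jnk1 shRNA arrays, 54.4, 59.1, 63.9 and 66.1 in the GFP shRNA arrays, and 22.5, 22.7, 21.97, 18.1 and 22.9 in the vehicle arrays. Its vehicle arrays were closer together than those of the first, and no groups overlapped. It rose against vehicle in Jnk1 shRNA livers (3.02 ± 0.15, adjusted p = 9.42e-09) and in GFP shRNA livers (1.49 ± 0.16, adjusted p = 0.000154). Mcm4, another helicase subunit, measured 79.2, 104, 82.7, 98.2 and 109.97 in the Jnk1 shRNA arrays, 64.1, 44.2, 77.2 and 64.8 in the GFP shRNA arrays, and 41.5, 25.2, 38.6, 45.3 and 36.6 in the vehicle arrays. The Jnk1 shRNA arrays lay above all others, and GFP shRNA array 2 lay within the vehicle values. Mcm4 was 1.53-fold higher in Jnk1 shRNA than in GFP shRNA livers (0.62 ± 0.20, adjusted p = 0.0397), and its second probe set was called too (0.50 ± 0.16, adjusted p = 0.0426). The first call was lost without Jnk1 shRNA array 2, 4 or 5 or without GFP shRNA array 1, 2 or 5, with adjusted p between 0.0181 and 0.120 over the single arrays left out. Against vehicle it rose in Jnk1 shRNA livers (1.36 ± 0.18, adjusted p = 7.74e-05), and the GFP shRNA difference did not pass in the main fit (0.74 ± 0.20, adjusted p = 0.0968). That difference passed without GFP shRNA array 2 (adjusted p = 0.0409). It also passed on intensities as deposited, with array weights and by the mean over both probe sets.

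Mcm2 measured 82.7, 103, 138, 99.2 and 168 in the Jnk1 shRNA arrays, 70.2, 64.98, 106 and 131 in the GFP shRNA arrays, and 28.8, 38.3, 44.5, 53.7 and 55.4 in the vehicle arrays. Both virus groups lay above the vehicle arrays, and they overlapped each other. The rise passed in Jnk1 shRNA livers (1.41 ± 0.25, adjusted p = 0.000651), and the GFP shRNA difference did not (1.06 ± 0.26, adjusted p = 0.0752), although the second probe set passed there (1.33 ± 0.25, adjusted p = 0.0155). Mcm3, Mcm5 and Mcm7 rose in Jnk1 shRNA against vehicle livers by 0.79 ± 0.17, adjusted p = 0.00396, by 1.39 ± 0.42, adjusted p = 0.0266 and by 0.38 ± 0.11, adjusted p = 0.0178. Mcm5 ranged from 28.2 to 32.99 in Jnk1 shRNA, 21.6 to 50.2 in GFP shRNA and 4.26 to 20.98 in vehicle arrays, so no virus array fell within the vehicle values and the vehicle mean was near background. Mcm7 in GFP shRNA livers did not pass against vehicle in the main fit (0.47 ± 0.11, adjusted p = 0.0665). It passed without Jnk1 shRNA array 3 (adjusted p = 0.0341) and on intensities as deposited. It also passed when the lowest 40% of probe sets were left out and by the mean over its probe sets. Of the other probe sets of Mcm3 and Mcm7, 1 each did not pass in Jnk1 shRNA against vehicle livers (1.10 ± 0.48, adjusted p = 0.125 for Mcm3 and 0.16 ± 0.16, adjusted p = 0.550 for Mcm7). The Mcm5 call was lost without Jnk1 shRNA array 4 or 5 or vehicle array 2 or 5 (adjusted p up to 0.0704).

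Genes that load or start the helicase did not pass. Cdt1, the licensing factor that brings the helicase to origins, had a log2 fold change of 0.45 ± 0.17, adjusted p = 0.0667 in Jnk1 shRNA livers against vehicle, a difference whose groups did not overlap. Its second probe set was called (1.25 ± 0.40, adjusted p = 0.0355). Without GFP shRNA array 2 or 3 the first passed as well, with adjusted p down to 0.0241. Cdc6, the other loading factor, was near background in all 3 groups and at the floor on 2 Jnk1 shRNA, 2 GFP shRNA and 2 vehicle arrays. Gins1, of the GINS complex that activates the helicase, ranged from 21.1 to 37.4 in Jnk1 shRNA, 9.96 to 48.8 in GFP shRNA and 13.3 to 34.3 in vehicle arrays and did not pass in any comparison.

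Of the 6 replication fork genes, Prim1 alone rose in Jnk1 shRNA livers against vehicle, where 11.9% of all probe sets were called higher. Pcna alone rose in GFP shRNA livers against vehicle, where 1.01% were called higher. List medians were 0.24 and 0.32. Pcna, the sliding clamp of DNA polymerases, measured 420.4, 448, 376, 385 and 429 in the Jnk1 shRNA arrays, 483, 503, 482 and 481 in the GFP shRNA arrays, and 373, 428, 411, 383 and 399 in the vehicle arrays. The 4 GFP shRNA arrays lay above every other array, within a narrow range, and the Jnk1 shRNA and vehicle values overlapped. Pcna was 1.19-fold lower in Jnk1 shRNA than in GFP shRNA livers (-0.25 ± 0.06, adjusted p = 0.0107), and higher in GFP shRNA than in vehicle livers (0.29 ± 0.06, adjusted p = 0.0323). The first call held with any single array left out (adjusted p 0.00575 to 0.0299). The second was lost without any one GFP shRNA array or without vehicle array 1, 3, 4 or 5 (up to 0.0897). Pcna lost its call between the viruses without quantile normalization and when arrays were brought to 1 common median.

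Prim1, the catalytic subunit of primase, measured 84.8, 101, 76.9, 108 and 103 in the Jnk1 shRNA arrays, 89.4, 103, 96.5 and 105 in the GFP shRNA arrays, and 84.1, 64.9, 59.8, 66.4 and 75.1 in the vehicle arrays. The GFP shRNA arrays lay above all vehicle arrays, and 1 Jnk1 shRNA array lay within the vehicle values. The Jnk1 shRNA difference from vehicle passed (0.43 ± 0.12, adjusted p = 0.0166) and the GFP shRNA one did not (0.50 ± 0.13, adjusted p = 0.0879), except without vehicle array 1 (adjusted p = 0.0425). The second probe set of Prim1 did not pass in Jnk1 shRNA livers (1.78 ± 0.65, adjusted p = 0.0674). Rfc3, of the clamp loader, measured 35.3, 36.02, 45.5, 34.6 and 41.3 in the Jnk1 shRNA arrays, 31.4, 52.9, 24.2 and 37.8 in the GFP shRNA arrays, and 13.4, 24.4, 45.7, 25.3 and 23.7 in the vehicle arrays. The groups overlapped and none of the differences passed in the main fit (0.64 ± 0.29, adjusted p = 0.140 for Jnk1 shRNA against vehicle). The difference of Jnk1 shRNA from vehicle passed without vehicle array 3 (adjusted p = 0.0302). By the mean over its probe sets, Rfc3 passed in that comparison and between the viruses. Its second probe set rose in Jnk1 shRNA livers against vehicle (1.43 ± 0.32, adjusted p = 0.00394). The catalytic subunits of polymerases alpha and epsilon, Pola1 and Pole, and the clamp loader subunit Rfc4 did not pass, with fold changes for Jnk1 shRNA against vehicle of 0.54 ± 0.32, -0.41 ± 0.35 and 0.05 ± 0.25. Pole lay near background in all groups.

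Nucleotide supply was led by ribonucleotide reductase, which makes deoxynucleotides. Of the 5 genes, 3 (Rrm1, Rrm2 and Dut) rose in Jnk1 shRNA livers against vehicle, 1 (Rrm1) in GFP shRNA livers against vehicle and 1 (Rrm1) between the viruses. Rrm1, its large subunit, measured 141, 164, 159, 162 and 156 in the Jnk1 shRNA arrays, 86.95, 107, 94.9 and 84.1 in the GFP shRNA arrays, and 63.3, 60.9, 60.5, 67.2 and 74.5 in the vehicle arrays. No groups overlapped, and the order was Jnk1 shRNA, GFP shRNA and vehicle. Rrm1 was 1.68-fold higher in Jnk1 shRNA than in GFP shRNA livers (0.75 ± 0.10, adjusted p = 8.19e-05), a call kept in all 27 alternatives, and its second probe set rose by more (1.29 ± 0.19, adjusted p = 0.000206). Against vehicle it rose by 1.26 ± 0.09, adjusted p = 2.7e-07 in Jnk1 shRNA livers and by 0.51 ± 0.10, adjusted p = 0.0189 in GFP shRNA livers. The GFP shRNA call was lost without GFP shRNA array 3 or vehicle array 3 (adjusted p up to 0.0545), and the second probe set did not pass there (0.30 ± 0.19, adjusted p = 0.577).

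Rrm2, the small subunit, whose level normally follows S phase, measured 208, 282, 362, 493 and 295 in the Jnk1 shRNA arrays, 197, 220.4, 221 and 224 in the GFP shRNA arrays, and 213, 72.1, 61.3, 103 and 96.2 in the vehicle arrays. Vehicle array 1 reached the values of the virus arrays, and the other vehicle arrays lay below all of them. The rise passed in Jnk1 shRNA livers (1.67 ± 0.28, adjusted p = 0.000514). In GFP shRNA livers it did not in the main fit (1.13 ± 0.30, adjusted p = 0.1003), and another probe set of Rrm2 passed (1.30 ± 0.24, adjusted p = 0.0158). The first probe set passed there without vehicle array 1 (adjusted p = 0.00623) and when the lowest 40% of probe sets were left out. The mean over the probe sets of Rrm2 passed there too. Dut, which breaks down dUTP, measured 63.8, 56.7, 64.3, 62.2 and 56.3 in the Jnk1 shRNA arrays, 42.8, 66.01, 49.2 and 34.8 in the GFP shRNA arrays, and 42.1, 47.6, 42.3, 35.9 and 36.03 in the vehicle arrays. The Jnk1 shRNA arrays lay above all vehicle arrays and the GFP shRNA arrays spanned both. Dut rose in Jnk1 shRNA livers against vehicle (0.58 ± 0.16, adjusted p = 0.0188), and its second probe set did not pass (0.29 ± 0.23, adjusted p = 0.435). Between the viruses Dut passed only without GFP shRNA array 2 (adjusted p = 0.0273) and with array weights. Tk1, thymidine kinase, had a log2 fold change of 0.19 ± 0.23 in Jnk1 shRNA against vehicle livers and Tyms, thymidylate synthase, one of 0.26 ± 0.49, and neither passed. The second probe set of Tyms, near background in all groups, was called (1.73 ± 0.49, adjusted p = 0.0190).

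The genes of G2 and mitotic entry had the largest list median among the 7 roles against vehicle. All of these genes but Ccna2 lay near background in vehicle livers, so the size of that median is uncertain. In Jnk1 shRNA livers 5 of 7 rose (Cdk1, Ccnb2, Mki67, Top2a and Aurka) with a median of 1.53, and in GFP shRNA livers 3 of 7 rose (Cdk1, Ccnb2 and Mki67) with a median of 1.33. Between the viruses 0 of 7 were called (limma, with 1, Cdk1, higher at an unadjusted p under 0.05) and the median was 0.20. Cdk1 measured 75.1, 74.9, 98.7, 106 and 91.6 in the Jnk1 shRNA arrays, 34.3, 72.3, 56.9 and 55.7 in the GFP shRNA arrays, and 8.94, 21.6, 21.2, 12.2 and 20.6 in the vehicle arrays. The Jnk1 shRNA arrays lay above the GFP shRNA arrays and these above the vehicle arrays. Against vehicle Cdk1 was 5.54-fold higher in Jnk1 shRNA livers (2.47 ± 0.27, adjusted p = 1.09e-05) and 3.32-fold higher in GFP shRNA livers (1.73 ± 0.29, adjusted p = 0.00772). The difference between the viruses did not pass in the main fit (0.74 ± 0.29, adjusted p = 0.0934). Over the single arrays left out it passed without vehicle array 1 alone (adjusted p between 0.0435 and 0.250). With all arrays of the fit kept, it passed with arrays scaled to the same median and when 16 was added to each intensity. Array weights and a fit of only the 2 groups compared gave the call too.

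Ccnb2, cyclin B2, measured 33.3, 33.3, 43.7, 25.7 and 38.4 in the Jnk1 shRNA arrays, 28.5, 13.1, 39.7 and 23.2 in the GFP shRNA arrays, and 2.42, 8.91, 13.4, 2.15 and 2.01 in the vehicle arrays. The Jnk1 shRNA arrays lay above the vehicle arrays, and GFP shRNA array 2 lay within the vehicle values. The GFP shRNA and vehicle groups averaged near background. Ccnb2 rose in Jnk1 shRNA livers (3.05 ± 0.52, adjusted p = 0.000529) and in GFP shRNA livers (2.54 ± 0.55, adjusted p = 0.0369), and the second of these calls was lost in 15 of 25 alternatives. Single arrays whose removal ended it were any Jnk1 shRNA array, GFP shRNA array 1, 3 or 5, and vehicle array 1, 4 or 5 (adjusted p up to 0.120). Mki67, the gene of the Ki-67 antigen, measured 34.9, 43.98, 46.4, 33.5 and 49.9 in the Jnk1 shRNA arrays, 27.3, 12.95, 47.6 and 41.3 in the GFP shRNA arrays, and 7.18, 2.01, 2.01, 3.06 and 10.5 in the vehicle arrays. Every virus array lay above every vehicle array, 2 of which were at the floor, and the virus groups overlapped. Mki67 rose by 3.39 ± 0.48, adjusted p = 0.000118 in Jnk1 shRNA livers and by 2.88 ± 0.51, adjusted p = 0.0122 in GFP shRNA livers. Without GFP shRNA array 5 the adjusted p of the second was 0.0512.

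Top2a, the topoisomerase that untangles sister chromatids, ranged from 43.6 to 58.8 in Jnk1 shRNA, 36.9 to 52.4 in GFP shRNA and 8.30 to 28.7 in vehicle arrays. It rose in Jnk1 shRNA livers against vehicle (1.53 ± 0.29, adjusted p = 0.00140), and the GFP shRNA difference, whose groups did not overlap, missed the threshold (1.33 ± 0.31, adjusted p = 0.0594). Without vehicle array 1 or 2 that GFP shRNA difference passed (adjusted p down to 0.0327). A second probe set of Top2a lay at or near the floor in all groups. Aurka, the spindle pole kinase, rose in Jnk1 shRNA livers (0.75 ± 0.24, adjusted p = 0.0334), a call lost without Jnk1 shRNA array 3 or 5 or vehicle array 1, 3 or 5 (adjusted p up to 0.0941). Ccna2, cyclin A2, did not pass by its first probe set (0.52 ± 0.23, adjusted p = 0.133 and, for GFP shRNA, 0.92 ± 0.24, adjusted p = 0.0978) but rose by its second in Jnk1 shRNA (1.42 ± 0.15, adjusted p = 7.36e-06) and in GFP shRNA livers (1.22 ± 0.16, adjusted p = 0.00110). Without vehicle array 2 its first probe set passed against vehicle in both virus groups, with adjusted p = 0.0292 in Jnk1 shRNA and 0.0325 in GFP shRNA livers. Plk1, the polo-like kinase, lay near background in all groups and did not pass (1.32 ± 0.61, adjusted p = 0.150).

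Spindle and mitotic exit genes rose with Jnk1 shRNA against vehicle from low levels. In Jnk1 shRNA livers 5 of 8 rose (Birc5, Kif20a, Cdc20, Bub1b and Mad2l1) with a median of 1.07, and in GFP shRNA livers 1 of 8 rose (Birc5) with a median of 0.89 and 5 of 8 higher at an unadjusted p under 0.05. Between the viruses 0 of 8 were called, 0 of them at an unadjusted p under 0.05, and the median was 0.11. Birc5, of the chromosomal passenger complex, measured 38.5, 33.04, 46.1, 25.6 and 52.4 in the Jnk1 shRNA arrays, 24.7, 35.8, 58.2 and 33.7 in the GFP shRNA arrays, and 2.01, 2.87, 3.08, 2.01 and 2.01 in the vehicle arrays. All 9 virus arrays lay far above the vehicle arrays, and 3 of 5 vehicle arrays were at the floor with the others just above it. Birc5 rose by 4.01 ± 0.29, adjusted p = 2.48e-07 in Jnk1 shRNA livers and by 3.95 ± 0.31, adjusted p = 1.15e-05 in GFP shRNA livers, and both calls were kept in every alternative run. The size rests on a vehicle group at the floor: over the alternatives the log2 fold change reached down to 1.59 in Jnk1 shRNA and 1.55 in GFP shRNA livers, when 16 was added to each intensity. Between the viruses its fold change was 0.06 ± 0.31, adjusted p = 0.926.

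Kif20a, a kinesin of cytokinesis, measured 10.5, 15.7, 16.4, 5.14 and 15.9 in the Jnk1 shRNA arrays, 12.1, 18.6, 5.84 and 4.02 in the GFP shRNA arrays, and 2.84, 2.29, 2.01, 2.01 and 4.21 in the vehicle arrays. The Jnk1 shRNA arrays lay above the vehicle arrays, though all 3 groups averaged near background. The rise passed in Jnk1 shRNA livers (2.19 ± 0.44, adjusted p = 0.00204) and not in GFP shRNA livers (1.74 ± 0.47, adjusted p = 0.106). Mad2l1, of the spindle checkpoint, measured 50.9, 44.04, 55.04, 48.9 and 67.5 in the Jnk1 shRNA arrays, 51.5, 51.8, 74.7 and 65.9 in the GFP shRNA arrays, and 22.7, 44.1, 30.3, 36.03 and 36.9 in the vehicle arrays. The GFP shRNA arrays lay above all vehicle arrays, and 1 Jnk1 shRNA array was just under the highest vehicle array. Mad2l1 rose in Jnk1 shRNA livers (0.67 ± 0.19, adjusted p = 0.0208), a call lost without Jnk1 shRNA array 5 (adjusted p = 0.0612). The GFP shRNA difference missed the threshold in the main fit (0.86 ± 0.20, adjusted p = 0.0628). That difference passed without vehicle array 2 (adjusted p = 0.0433) and on intensities as deposited. It also passed when the lowest 40% of probe sets were left out, with a robust variance prior and with array weights.

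Cdc20, which activates the anaphase-promoting complex, rose in Jnk1 shRNA livers (1.08 ± 0.27, adjusted p = 0.00965). Its second probe set rose as well (1.21 ± 0.23, adjusted p = 0.00136), and its last, near background in all groups, did not (-0.21 ± 0.40, adjusted p = 0.781). Bub1b, of the checkpoint, also rose in Jnk1 shRNA livers (1.06 ± 0.28, adjusted p = 0.0117), from levels near background in all groups. Bub1, Aurkb and Kif11 lay near background in all groups and did not pass by their probe set of highest mean, with fold changes in Jnk1 shRNA against vehicle livers of 0.42 ± 0.49, 0.93 ± 0.50 and 1.10 ± 0.58. Another probe set of Kif11 was called there (0.77 ± 0.21, adjusted p = 0.0163).

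**Figure D2:**
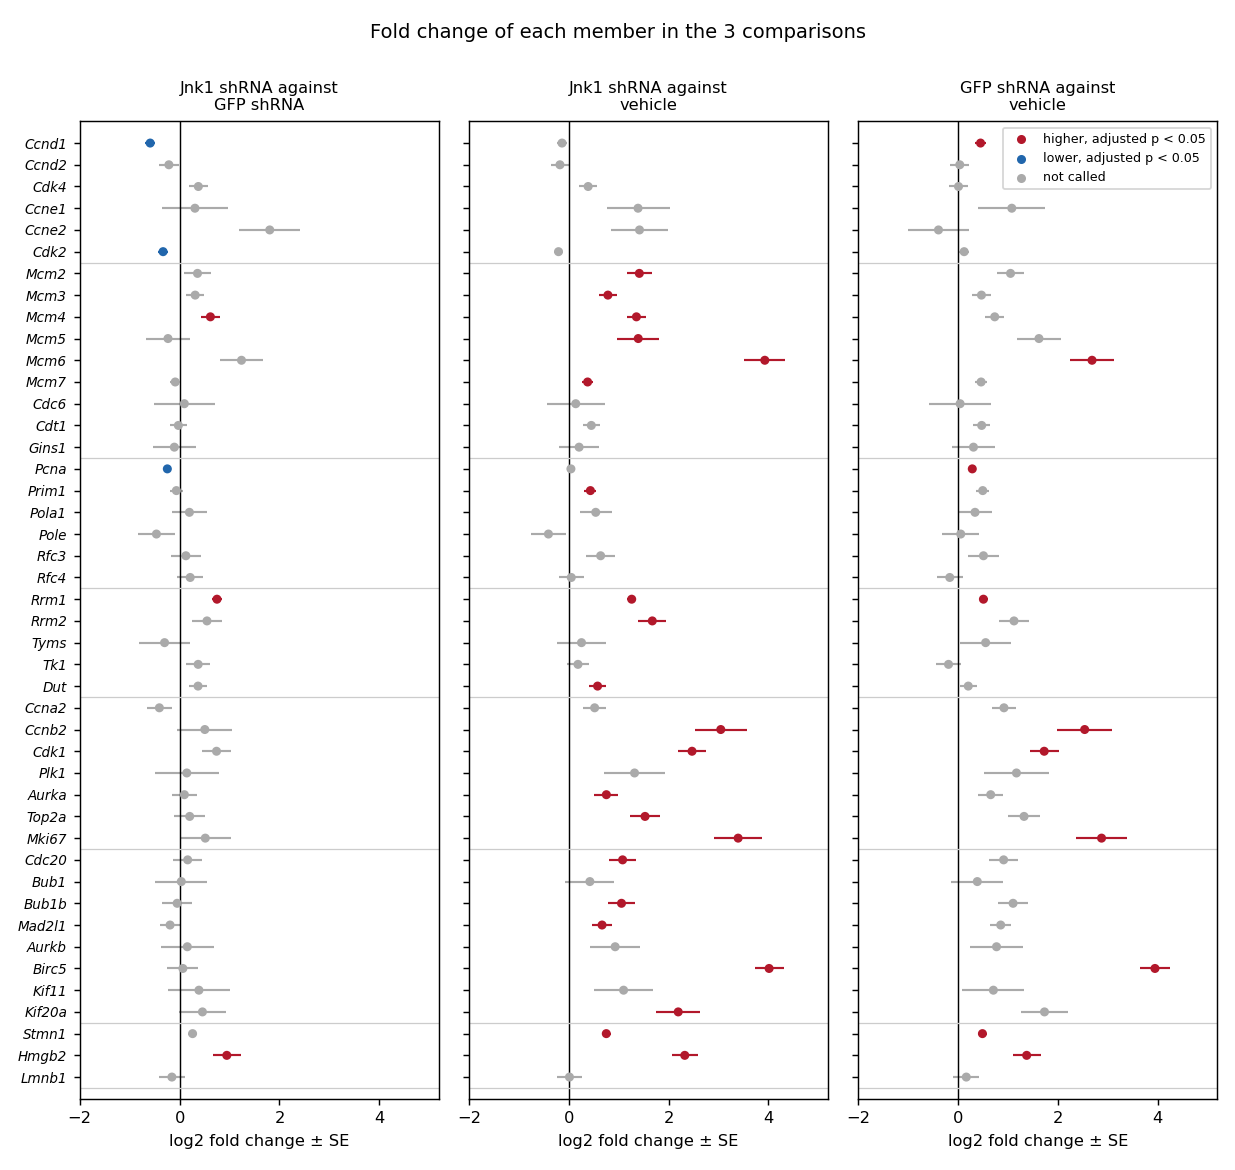
Log2 fold change (points) with its SE (bars) of each of the 44 members in the 3 comparisons, in order of role, with called members in red (higher) or blue (lower). Most points lie right of 0 in both comparisons with vehicle, and most lie within 1 of 0 between the viruses, where 3 are red and 3 blue.

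The last 3 genes regulate chromatin, tubulin and the nuclear lamina. Stmn1 and Hmgb2 rose against vehicle with either virus, Hmgb2 rose between the viruses, and Lmnb1 was not called. Hmgb2, a chromatin protein of dividing cells, measured 84.3, 122, 128, 96.5 and 89.7 in the Jnk1 shRNA arrays, 61.01, 42.9, 53.3 and 57.9 in the GFP shRNA arrays, and 11.8, 27.7, 32.5, 24.9 and 13.7 in the vehicle arrays. No groups overlapped, and the vehicle arrays averaged near background. Hmgb2 was 1.93-fold higher in Jnk1 shRNA than in GFP shRNA livers (0.94 ± 0.28, adjusted p = 0.0291), and it rose against vehicle by 2.32 ± 0.27, adjusted p = 1.56e-05 in Jnk1 shRNA and by 1.38 ± 0.28, adjusted p = 0.0256 in GFP shRNA livers. The call between the viruses was lost without Jnk1 shRNA array 2 or 3 or GFP shRNA array 2, 3 or 5 (adjusted p between 0.0119 and 0.0790 over the single arrays left out), and its second probe set did not pass (0.64 ± 0.52, adjusted p = 0.462). The call of GFP shRNA against vehicle was lost without GFP shRNA array 1, 3 or 5 or vehicle array 5 (adjusted p up to 0.0897), and the second probe set did not pass there either (1.59 ± 0.52, adjusted p = 0.201).

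Stmn1, stathmin, which destabilizes microtubules, measured 289.9, 268, 318, 257 and 288 in the Jnk1 shRNA arrays, 211, 269, 248 and 223 in the GFP shRNA arrays, and 194, 175, 148, 162 and 166 in the vehicle arrays. All 9 virus arrays lay above the vehicle arrays, and the virus groups overlapped. Stmn1 rose by 0.75 ± 0.09, adjusted p = 2.09e-05 in Jnk1 shRNA and by 0.49 ± 0.09, adjusted p = 0.0189 in GFP shRNA livers, the second call lost without GFP shRNA array 2 or 3 (adjusted p up to 0.0596) and not made by its second probe set (0.20 ± 0.31, adjusted p = 0.862). The difference between the viruses did not pass in the main fit (0.26 ± 0.09, adjusted p = 0.0720). It passed without GFP shRNA array 2 (adjusted p = 0.0347). It also passed on intensities as deposited, with arrays scaled to the same median and with array weights. Lmnb1, lamin B1, measured 112, 61.8, 129, 97.6 and 102 in the Jnk1 shRNA arrays, 72.96, 176, 109 and 99.6 in the GFP shRNA arrays, and 103, 121, 79.2, 125 and 68.7 in the vehicle arrays. The groups overlapped, and the fold change against vehicle was 0.02 ± 0.25, adjusted p = 0.982 in Jnk1 shRNA livers.

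**Figure D3:**
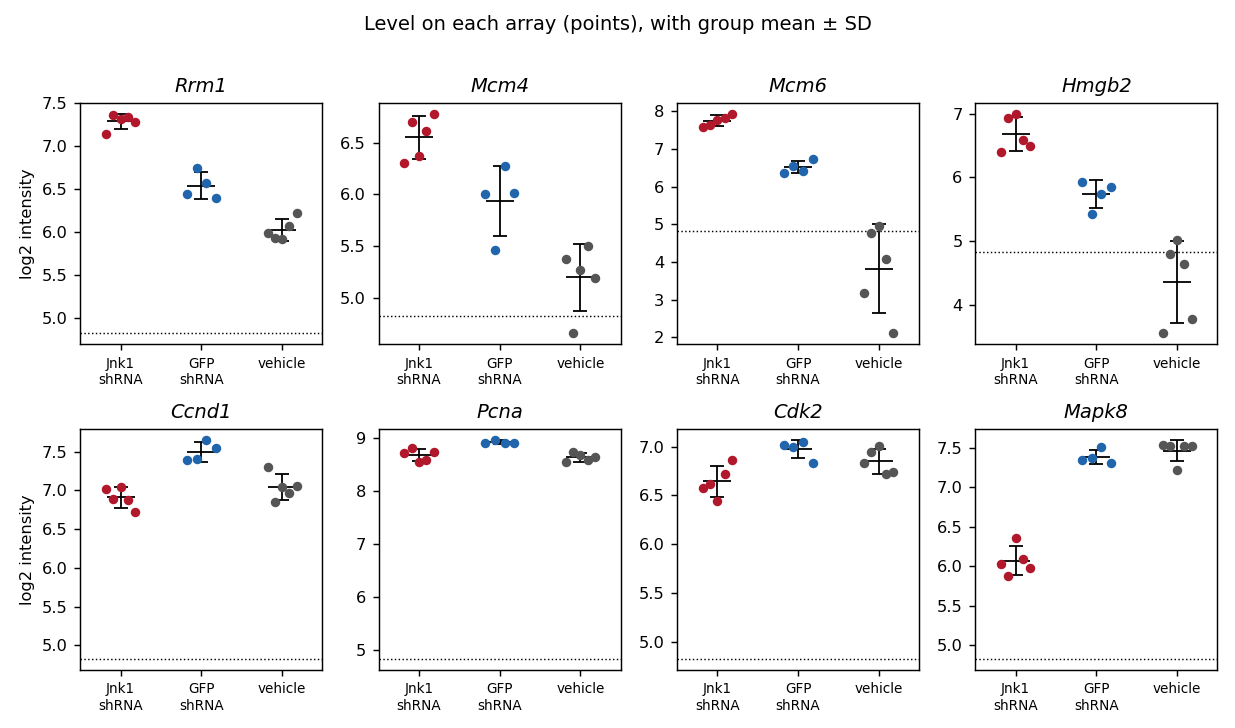
Log2 intensity on each array (points) for the 6 members called between the viruses, Mcm6 and Mapk8, with group mean ± SD (lines) and the level taken as near background (dotted). Each panel has its own axis, which does not start at 0. Rrm1, Mcm4, Mcm6 and Hmgb2 step down from Jnk1 shRNA over GFP shRNA to vehicle, while Ccnd1, Pcna and Cdk2 are highest on average in GFP shRNA arrays.

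Over the 3 comparisons, 25 of the 44 members were called at least once. Of the 22 that rose in Jnk1 shRNA against vehicle livers, 8 also rose in GFP shRNA against vehicle livers, and 14 were called with Jnk1 shRNA alone. Of those 14, Mcm4 alone was called between the viruses, so for the other 13 no difference between Jnk1 shRNA and GFP shRNA was shown. Rrm1 and Hmgb2 were higher in all 3 comparisons. Ccnd1 and Pcna were called in GFP shRNA against vehicle and lower in Jnk1 shRNA against GFP shRNA, and their Jnk1 shRNA levels did not pass a test against vehicle (-0.13 ± 0.10, adjusted p = 0.374 for Ccnd1 and 0.04 ± 0.06, adjusted p = 0.661 for Pcna).

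Other genes of the same machinery were counted in the same way, to be read against the 11.9% of all probe sets called higher and 10.7% called lower in Jnk1 shRNA against vehicle, 1.01% and 0.217% in GFP shRNA against vehicle, and 9.98% and 8.67% between the viruses. Of 36 other replication genes, 5 rose and 2 fell in Jnk1 shRNA against vehicle livers (median 0.24), 0 were called in GFP shRNA against vehicle livers (limma, with 7 higher and 2 lower at an unadjusted p under 0.05), and 3 rose and 1 fell between the viruses. These counts lie near those shares or below them. Slbp, which binds histone mRNA in S phase, rose between the viruses by 0.56 ± 0.10, adjusted p = 0.000899, and by 0.97 ± 0.09, adjusted p = 3.05e-06 against vehicle. Rpa3, of the single-strand DNA binding complex, rose between the viruses by 0.90 ± 0.21, adjusted p = 0.00643, and Dnmt1, the maintenance DNA methyltransferase, rose in Jnk1 shRNA against vehicle by 0.52 ± 0.13, adjusted p = 0.00996. Mcm10, a helicase activator, was lower in Jnk1 shRNA livers both against GFP shRNA (-0.89 ± 0.21, adjusted p = 0.00847) and against vehicle (-1.43 ± 0.20, adjusted p = 0.000105), and both its probe sets fell.

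Of 44 other mitotic genes, 17 rose and 1 fell in Jnk1 shRNA against vehicle livers (median 0.73), 1 rose in GFP shRNA against vehicle livers (median 0.50), and 6 rose and 1 fell between the viruses (median 0.39), with 16 near background in all groups. Spc25, of the Ndc80 kinetochore complex, rose between the viruses by 2.52 ± 0.30, adjusted p = 3.71e-05, but its second probe set did not (-0.25 ± 0.29, adjusted p = 0.623). Cks2, a small Cdk-binding protein, rose between the viruses by 1.198 ± 0.16, adjusted p = 0.000118, Cdc25a, a phosphatase that activates Cdks, by 1.17 ± 0.26, adjusted p = 0.00496, and Ect2, of cytokinesis, by 0.96 ± 0.27, adjusted p = 0.0214.

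Of 17 E2F, DREAM and FOXM1 regulators, 3 rose and 3 fell in Jnk1 shRNA against vehicle livers, 0 were called in GFP shRNA livers (limma, with 1 higher and 3 lower at an unadjusted p under 0.05), and 1 rose and 1 fell between the viruses. Between the viruses these counts lie below the shares of all probe sets, and the 3 in each direction against vehicle exceed them by about 1 gene. Myc, the growth transcription factor, fell between the viruses by a log2 change of -1.15 ± 0.34, adjusted p = 0.0287, and Rb1, the retinoblastoma protein, which restrains E2F, rose by 0.58 ± 0.19, adjusted p = 0.0414. Rbbp4 and Rbl2, also of complexes that repress these genes, fell in Jnk1 shRNA against vehicle livers by changes of -0.34 ± 0.07, adjusted p = 0.00206 and -0.36 ± 0.11, adjusted p = 0.0250, though the second probe set of Rbl2 did not pass.

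Of 15 cell cycle inhibitors and arrest genes, 4 rose and 3 fell in Jnk1 shRNA against vehicle livers, 1 rose and 1 fell in GFP shRNA against vehicle livers, and 4 rose and 1 fell between the viruses. Cdkn1a, the p21 inhibitor of Cdk2 and target of p53, measured 643, 834, 1209, 971 and 862 in the Jnk1 shRNA arrays, 145, 223, 207 and 147 in the GFP shRNA arrays, and 102, 85.9, 86.4, 87.3 and 62.5 in the vehicle arrays. The 3 groups did not overlap. It rose by 2.32 ± 0.19, adjusted p = 1.25e-06 in Jnk1 shRNA against GFP shRNA livers and by 1.08 ± 0.19, adjusted p = 0.00951 in GFP shRNA against vehicle livers. Ccng1 and Ccng2, cyclins G1 and G2, rose between the viruses by 1.42 ± 0.13, adjusted p = 4.16e-06 and 0.64 ± 0.14, adjusted p = 0.00580. Tob1, an antiproliferative protein, fell against vehicle by changes of -1.05 ± 0.10, adjusted p = 4.19e-06 in Jnk1 shRNA and -0.92 ± 0.11, adjusted p = 0.000508 in GFP shRNA livers.

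Of 13 checkpoint and repair genes, 3 rose in Jnk1 shRNA against vehicle livers. None of the 13 fell. These 3 were Chek1, the replication checkpoint kinase, near background in all groups (2.15 ± 0.55, adjusted p = 0.00970), Msh6 of mismatch repair (0.69 ± 0.18, adjusted p = 0.0124) and Topbp1 of checkpoint signalling (0.76 ± 0.25, adjusted p = 0.0394). In GFP shRNA against vehicle livers 0 were called (limma, 2 higher at an unadjusted p under 0.05), and between the viruses 0 (1 higher and 1 lower at an unadjusted p under 0.05). Other probe sets of Chek1 did not pass.

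Markers of cell types that divide or enter the liver were followed beside the cell cycle genes, and their counts too are to be read against the 11.9% of all probe sets called higher and 10.7% lower in Jnk1 shRNA against vehicle, 1.01% and 0.217% in GFP shRNA against vehicle, and 9.98% and 8.67% between the viruses. Markers of T and NK cells rose against vehicle for 7 of 13 genes in Jnk1 shRNA and 2 of 13 in GFP shRNA livers, and for 2 of 13 between the viruses. Their summed level lay between 380 and 432 in Jnk1 shRNA, 272 and 484 in GFP shRNA and 201 and 258 in vehicle arrays. GFP shRNA array 2 held the 484, and the highest of the other GFP shRNA arrays was 301. Of these markers 7, among them Cd3e, Cd3g, Cd3d, Cd8a, Cd8b1 and Cd4, lay near background in all groups, and Nkg7 rose against vehicle with either virus (2.17 ± 0.22, adjusted p = 4.51e-06 in Jnk1 shRNA and 1.93 ± 0.23, adjusted p = 0.000497 in GFP shRNA). Markers of all leukocytes rose against vehicle for 5 of 8 genes in either virus group, Ptprc by 0.71 ± 0.12, adjusted p = 0.000489 in Jnk1 shRNA and by 0.92 ± 0.13, adjusted p = 0.00174 in GFP shRNA livers, and 2 of 8 fell between the viruses. Against vehicle the called markers of both lists were higher, as the called members were, and their part in the members' rises was not tested. Between the viruses the median of the leukocyte markers was -0.26 and that of the T and NK cell markers 0.33.

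Markers of macrophages and Kupffer cells fell between the viruses, with 7 of 11 lower in Jnk1 shRNA livers, and their summed level lay between 2541 and 3099 in Jnk1 shRNA, 4740 and 5460 in GFP shRNA and 2824 and 4806 in vehicle arrays. Against vehicle 0 of 11 rose and 4 fell in Jnk1 shRNA livers (limma, 1 higher at an unadjusted p under 0.05, median -0.44), and 3 rose and 3 fell in GFP shRNA livers (8 of 11 above 0, median 0.33). The 3 that fell with either virus were Clec4f, Vsig4 and Marco, while the other 8 of 11 lay above 0 in GFP shRNA against vehicle livers. Clec4f fell against vehicle in both groups (-2.40 ± 0.13, adjusted p = 1.96e-08 in Jnk1 shRNA and -1.98 ± 0.14, adjusted p = 3.72e-06 in GFP shRNA). Between the viruses Ccnd1, Pcna and Cdk2 were lower, as was the median of the macrophage and Kupffer cell markers (-0.69). Medians of erythroid (-0.78), stellate cell (-0.44), B and plasma cell (-0.39), endothelial (-0.31), leukocyte (-0.26) and hepatocyte (-0.14) markers were negative too. Those of T and NK cell (0.33) and bile duct and progenitor (0.04) markers were positive. The part of these lists in the fall of the 3 genes was not tested. Erythroid precursor markers were called for Alas2 and Klf1, both lower in Jnk1 shRNA livers, and the other 5 of 7 lay near background in all groups. Bile duct and progenitor markers lay near background in all groups, with 0 of 6 called in any comparison (limma, 1 higher between the viruses and 1 lower in GFP shRNA against vehicle at an unadjusted p under 0.05).

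B and plasma cell markers fell for 2 of 7 genes between the viruses, and 0 of 7 were called against vehicle (limma, 2 lower in Jnk1 shRNA and 1 higher in GFP shRNA at an unadjusted p under 0.05). Endothelial markers fell in Jnk1 shRNA livers for 2 of 8 against GFP shRNA and 4 of 8 against vehicle, and 1 of 8 fell in GFP shRNA against vehicle livers. Stellate cell markers fell in Jnk1 shRNA livers for 2 of 7 against GFP shRNA and 3 of 7 against vehicle, and 1 of 7 rose in GFP shRNA against vehicle livers. Hepatocyte markers, which define the tissue, were at high intensity on all arrays, and Hnf4a was lower in Jnk1 shRNA livers against GFP shRNA (-0.52 ± 0.07, adjusted p = 8.58e-05). Of the 9 hepatocyte markers 4 fell in Jnk1 shRNA against vehicle livers, while Alb, albumin, had a log2 fold change of 0.01 ± 0.06, adjusted p = 0.909.

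**Figure D4:**
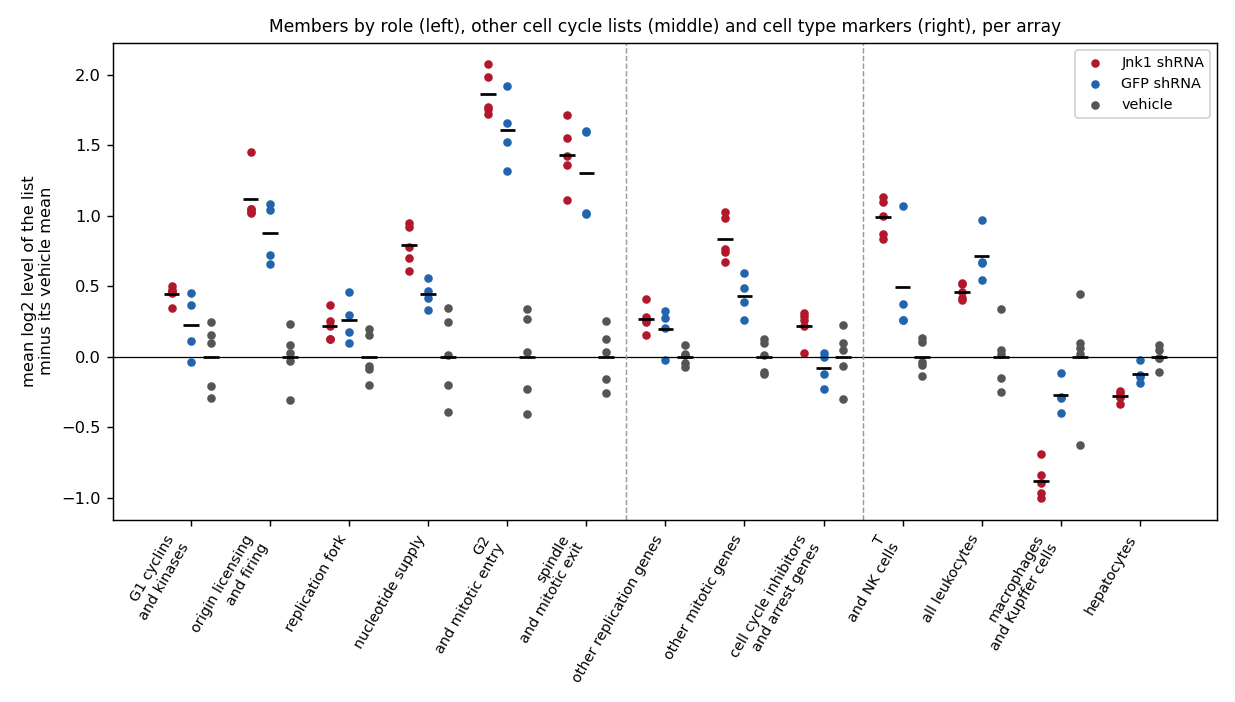
Mean log2 level of each list on each array (points), minus the mean of the vehicle arrays, with the group mean as a bar, for 6 roles of the members, 3 other cell cycle lists and 4 marker lists. The mean of the G2 and mitotic entry genes lay 1.72 to 2.07 above vehicle in Jnk1 shRNA arrays and 1.32 to 1.92 in GFP shRNA arrays. That of T and NK cell markers lay 0.84 to 1.14 above it in Jnk1 shRNA and 0.26 to 1.07 in GFP shRNA arrays. GFP shRNA array 2 held the 1.07, and the highest of the other GFP shRNA arrays was 0.37.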

How the data were processed

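Liver RNA of 14 samples (5 Jnk1 shRNA, 4 GFP shRNA, 5 vehicle) was labelled with biotin after extraction with a Qiagen RNeasy kit, per the labels' protocols, and hybridized to 1 array each. The deposited table holds 22690 probe sets as linear intensity, which the authors had scaled: the mean without the lowest and highest 2% lay between 150.05 and 150.06 on every array. The sources used here do not give the software or the background correction. Intensities were quantile normalized, raised to a floor of 2.01 (5th percentile) and log2 transformed. After removal of 64 control probe sets, 22626 were fitted with limma 3.58.1 in R 4.3.3, with 1 mean per group, variance shrinkage with an intensity trend and 11 residual degrees of freedom. Benjamini-Hochberg adjustment ran over all 22626, and calls were made at an adjusted p under 0.05. The fit was also run on simulated data with independent normal noise and known changes in the Jnk1 shRNA group. That simulation set no floor and no array or spike-in effect, so it does not bear on values near the floor. The number of arrays limits the precision. Symbols came from the platform annotation: 20393 probe sets had 1 symbol, 691 several and 1606 none, and only the first were named.

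The members and lists were chosen with earlier results of these data known. Values on every array are given, per role, for up to 3 members of smallest p over the 3 comparisons and for any further member called between the viruses. From each list of other genes up to 4 called members of smallest p are named, and other probe sets are named where their call differs. The alternatives tried were other scalings, filters, pseudocounts, variance models, probe sets, a replicate block and each array left out.

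Replicate numbers recur across groups but did not pair the arrays: the deviations of 13 same-number pairs correlated between -0.14 and 0.05, and 0 exceeded 0.1.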

Additional observations from a re-analysis of the deposited data

Results flagged for a closer look

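In groups of 4 or 5 arrays, 7 of 165 groups of values examined held an array whose gap to its nearest neighbour was large against the whole range of the group. Chance alone flags about 1 in 20 groups, or 8.2 of 165, so these are given as values. Ccne2 measured 2.01, the floor, on GFP shRNA array 2, against 19.9 to 28.0 on the other GFP shRNA arrays. Pcna measured 503 on GFP shRNA array 2, against 481 to 483 on the others. Rrm2 measured 197 on GFP shRNA array 1, against 220 to 224 on the others, and Aurka 34.4 on GFP shRNA array 5, against 32.0 to 32.3. Mapk8 measured 149 on vehicle array 3, against 184 to 186 on the other vehicle arrays. The mean log2 level of the origin licensing and firing genes lay 1.45 above vehicle on Jnk1 shRNA array 5, against 1.02 to 1.05 on the other Jnk1 shRNA arrays. The median intensity as deposited was 58.3 on GFP shRNA array 2, against 45.8 to 47.8 on the other GFP shRNA arrays, and quantile normalization removed that difference in the median.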

How the results depend on the processing

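Under other scalings, filters, models and probe sets and without single arrays, 10 of the 22 members called in Jnk1 shRNA against vehicle kept their call in all that were run and 19 kept it with each array left out in turn. Between the viruses this held for 2 of 6 (Rrm1 and Ccnd1) and 3 of 6 members, and in GFP shRNA against vehicle for 1 of 10 (Birc5) and 3 of 10. Between the viruses 3 members were higher, against 6 with arrays scaled to the same median, 6 with a pseudocount of 16, 5 with a robust variance prior, 6 with array weights, 5 with only the 2 groups compared, 1 in a fit that adjusts for the spike-in controls and 1 to 4 with single arrays left out. There 3 were lower, against 1 with arrays scaled to the same median and 1 with that adjustment, and 4218 probe sets were called, against 1929 with that adjustment. In Jnk1 shRNA against vehicle that adjustment left 12 of 22 members and 2598 of 5100 probe sets, while the median of the members was 0.77. In GFP shRNA against vehicle 10 members and 277 probe sets became 6 and 177 without an intensity trend, 1 and 127 with only the 2 groups compared, 4 to 12 and 153 to 320 with single arrays left out, and 5 and 179 without GFP shRNA array 2 and Jnk1 shRNA array 1, a choice made after seeing the data. With a replicate block, although the numbers do not pair the arrays, the members called were 5 in GFP shRNA against vehicle (151 probe sets), 20 in Jnk1 shRNA against vehicle (4738 probe sets), and 2 higher and 2 lower between the viruses (3775 probe sets). The next probe set of Top2a reversed its direction for Jnk1 shRNA against vehicle, to -0.42, where both groups lay near the floor. The cause of these changes was not tested. Where arrays were left out, the smaller number of arrays and the array removed cannot be told apart. Leaving out the lowest 40% of probe sets removed 15 of 44 members, so fold changes of genes near background are limited by signal over background.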
